A study of Mus musculus with 6 samples.

Results

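C-type lectin receptors and TREM receptors are surface proteins through which macrophages sense fungal and mycobacterial glycans, lipids and dead cells. The set described here holds 10 genes, taken by symbol from a table of 18392 genes. They are the lectin receptors Clec4d, Clec4e, Clec4n, Clec5a, Clec7a and Clec12a, the receptors Trem1 and Trem2, and the adaptor genes Tyrobp and Card9. All 10 were in the table and all 10 passed the level needed for testing, which was an average of 1 FPKM or more (fragments per kilobase of transcript, scaled to the mapped fragments of the library). RNA was sequenced from alveolar macrophages, which live in the air spaces and clear surfactant and inhaled particles, sorted from digested lungs of C57BL/6 mice 6 weeks of age. For the 3 knockout libraries the mice carried floxed Hdac3 on both alleles and a Cre recombinase driven by the Cd11c (Itgax) promoter, which is also active in dendritic cells. The 3 control libraries came from mice with the same floxed alleles and, by their labelled genotype, no Cre, so an effect of Cre itself cannot be told apart from that of Hdac3 deletion. Whether a library is 1 mouse or a pool is not given in the sources used here, so a p-value here speaks only for the spread among these samples, which may be technical.

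Most of these receptors carry no signalling motif of their own and pair with a small adaptor in the membrane that holds an immunoreceptor tyrosine-based activation motif (ITAM). Clec4d, Clec4e and Clec4n are known to use the Fc receptor gamma chain (gene Fcer1g), and Clec5a, Trem1 and Trem2 use DAP12, which Tyrobp encodes. Clec7a bears a tyrosine motif in its own tail, and Clec12a bears an inhibitory motif, so Clec12a is an inhibitory receptor rather than an activating one. Phosphorylated ITAMs recruit the kinase SYK, which for the antifungal lectins signals through CARD9, BCL10 and MALT1 to NF-kB.

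Values are given in FPKM as the authors deposited them. Hdac3 itself, the deleted gene, read 4.36, 5.05 and 3.97 FPKM in knockout libraries, against 17.7, 19.9 and 16.9 FPKM in control libraries. The 10 most abundant genes held 25.5 to 26.8% of the FPKM sum in knockout libraries and 13.2 to 13.9% in control libraries, and over the 10847 tested genes the log2 changes had a median of -0.31. With trimmed-mean-of-M-values (TMM) scaling it was 0.03. Changes of the 10 genes are therefore given under both scalings, and a gene that changes with the median gene has a log2 change near -0.31 as deposited. The depth, in units of 1000000 fragments, was estimated at 18.3 to 18.7 per knockout library and 17.3 to 17.9 per control library, from what 1 fragment is worth in genes with 1 transcript.

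As deposited, 4 of the 10 genes were higher in knockouts, 4 were lower and 2 were not called, at an adjusted p under 0.05 in limma. Of all tested genes, 69.8% were called, 11.0% higher and 58.8% lower, so the share of these genes that was called is near the background. After TMM scaling 5 were higher, 3 lower and 2 not called, where 56.3% of all tested genes were called, 31.1% higher and 25.3% lower. In 8 of the 10 genes the libraries of the groups did not overlap, 4 higher and 4 lower, where 74.5% of all tested genes did not overlap, 12.1% higher and 62.4% lower. In bulk RNA, fewer cells of a type and less RNA per cell cannot be told apart. The same direction was called under both scalings for Clec4d, Clec4n, Trem2 and Tyrobp, which were higher, and for Clec4e, Clec12a and Trem1, which were lower. Clec7a was called after TMM scaling only, Card9 as deposited only, and Clec5a under neither. As deposited, changes called with a log2 size of at least 1 were seen for Clec4d, Clec4e, Trem1 and Clec12a, against 10.2% of all tested genes. After TMM scaling Trem1, at -0.94, fell short of that size and Clec4n, at 1.24, reached it. The 10 genes had a median log2 change of 0.01 as deposited, in a range from -2.80 to 1.65, and one of 0.38 with TMM scaling.

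**Figure D1:**
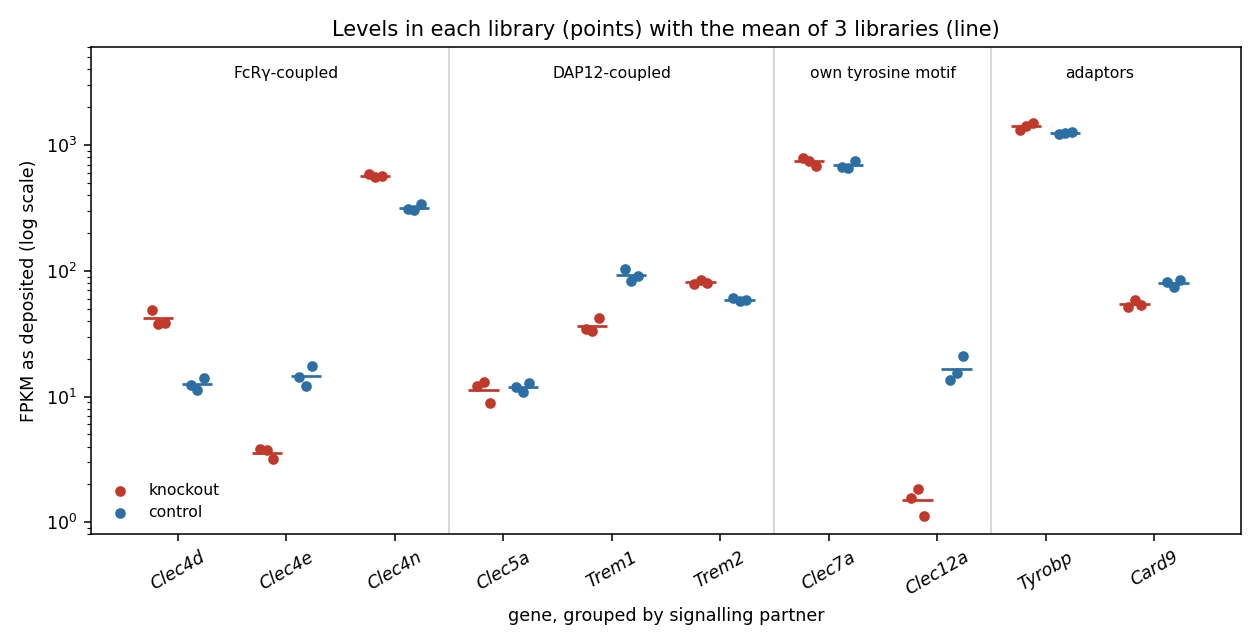
FPKM of each gene in each library on a log axis, with knockout libraries in red, control libraries in blue and the group mean as a line, ordered by signalling partner. Clec4d, Clec4n, Trem2 and Tyrobp sit higher in every knockout library than in any control library, and Clec4e, Trem1, Clec12a and Card9 lower, while Clec5a and Clec7a overlap.

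The lectins that pair with the Fc receptor gamma chain moved in opposite directions. Clec4d encodes MCL, which binds mycobacterial cord factor. It read 49.3, 37.7 and 38.5 FPKM in knockout libraries, against 12.3, 11.4 and 14.1 FPKM in control libraries. Every knockout library was above every control library. The means were 41.8 ± 6.44 FPKM in knockouts and 12.6 ± 1.39 FPKM in controls (SD, n = 3 each), a 3.32-fold rise (log2 change 1.65, SE 0.11; limma adjusted p = 7.3e-06), and the log2 change was 2.02 after TMM scaling. Only 89 of the 10847 tested genes had a more positive log2 change.

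Clec4e encodes Mincle, another receptor for cord factor and for material of dead cells, which is known to form complexes with MCL. Its levels were 3.80, 3.74 and 3.19 FPKM in knockout libraries, against 14.3, 12.2 and 17.3 FPKM in control libraries. All knockout libraries were below all control libraries. Clec4e averaged 3.58 ± 0.336 FPKM in knockouts and 14.6 ± 2.60 FPKM in controls (SD, n = 3 each), 4.08-fold lower in knockouts (log2 change -1.76, SE 0.12; limma adjusted p = 4.1e-06; -1.42 after TMM scaling). By the depth estimate these levels rest on about 147 to 179 fragments in a knockout library and 548 to 756 in a control library.

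Clec4n encodes dectin-2, which binds mannose-rich glycans of fungi. It was the most abundant of these lectins after Clec7a. Knockout libraries read 588, 559 and 573 FPKM, against 309.9, 302 and 340.2 FPKM in control libraries, with no overlap. Its means were 573 ± 14.7 FPKM in knockouts and 317 ± 20.1 FPKM in controls (SD, n = 3 each), a 1.81-fold rise (log2 change 0.85, SE 0.07; limma adjusted p = 6.7e-06; 1.24 after TMM scaling). In rank among all listed genes, Clec4n stood between 84 and 111 in knockout libraries and between 193 and 226 in control libraries. Fcer1g, the shared partner, read 833, 857 and 969 FPKM in knockout libraries and 692, 770.3 and 840.1 FPKM in control libraries, which overlap. It was not called as deposited (log2 change 0.21; limma adjusted p = 0.062) and was higher with TMM scaling (log2 change 0.60; limma adjusted p = 5.6e-04) and when control replicate 3 or knockout replicate 1 was left out (limma adjusted p = 0.022 and 0.0498). With the replicate number as a block it was also called (limma adjusted p = 0.038).

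Of the receptors that pair with DAP12, Trem1 fell, Trem2 rose and Clec5a was not called. Trem1 amplifies inflammatory responses of myeloid cells. It read 34.3, 33.15 and 42.3 FPKM in knockout libraries, against 104, 83.05 and 91.2 FPKM in control libraries. The highest knockout library lay well below the lowest control library. The means were 36.6 ± 5.0 FPKM in knockouts and 92.7 ± 10.5 FPKM in controls (SD, n = 3 each), 2.53-fold lower in knockouts (log2 change -1.32, SE 0.11; limma adjusted p = 2.0e-05; -0.94 after TMM scaling).

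Trem2 binds lipids and lipoproteins and supports the uptake of lipids and dead cells. Its levels were 79.2, 85.1 and 79.9 FPKM in knockout libraries, against 61.3, 57.4 and 58.7 FPKM in control libraries, with a narrow spread in each group and no overlap. It averaged 81.4 ± 3.23 FPKM in knockouts and 59.1 ± 1.98 FPKM in controls (SD, n = 3 each), a 1.38-fold rise (log2 change 0.45, SE 0.06; limma adjusted p = 1.1e-04; 0.84 after TMM scaling). Trem1 was thus the more abundant of the pair in every control library and Trem2 in every knockout library.

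Clec5a encodes MDL-1, known for its part in responses to flaviviruses. It read 12.0, 13.01 and 8.83 FPKM in knockout libraries, against 11.8, 11.0 and 12.8 FPKM in control libraries, and the groups overlap. Its log2 change was -0.08 as deposited, with a 95% interval from -0.38 to 0.22 (limma adjusted p = 0.60). After TMM scaling it was 0.28 (limma adjusted p = 0.097), so its direction depends on the scaling.

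Tyrobp, which encodes DAP12, was the most abundant of the 10 genes and ranked between 22 and 25 of all listed genes in knockout libraries and between 24 and 27 in control libraries. Levels were 1329, 1431 and 1504 FPKM in knockout libraries, against 1222, 1243 and 1266 FPKM in control libraries. All knockout libraries were above all control libraries, by a small margin. The means were 1421 ± 88.2 FPKM in knockouts and 1243 ± 22.2 FPKM in controls (SD, n = 3 each), a 1.14-fold rise (log2 change 0.19, SE 0.07; limma adjusted p = 0.029; 0.58 after TMM scaling). This call was lost when knockout replicate 2 or 3, or control replicate 1 or 2, was left out. The adjusted p then lay between 0.058 and 0.093. Hcst, whose product DAP10 also pairs with some receptors that use DAP12, averaged 21.96 ± 1.83 FPKM in knockouts and 22.1 ± 3.32 FPKM in controls (SD, n = 3 each), with a log2 change of -0.001 as deposited (limma adjusted p = 0.99) and 0.37 after TMM scaling (limma adjusted p = 0.015).

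The lectins with a tyrosine motif of their own differed widely in level and in change. Clec7a encodes dectin-1, the receptor for fungal beta-glucans. It read 793, 746 and 685 FPKM in knockout libraries, against 672, 662 and 749 FPKM in control libraries. The groups overlap, with the lowest knockout library between the controls. Its log2 change was 0.09 with a 95% interval from -0.08 to 0.27 (limma adjusted p = 0.30), and 0.48 after TMM scaling (limma adjusted p = 7.7e-04).

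Clec12a, the inhibitory receptor known to sense uric acid crystals, fell further than any other of the 10 genes. Knockout libraries read 1.55, 1.85 and 1.12 FPKM, against 13.6, 15.35 and 21.1 FPKM in control libraries. The control libraries spread more widely than the knockout ones, yet the groups are far apart. It averaged 1.51 ± 0.367 FPKM in knockouts and 16.7 ± 3.92 FPKM in controls (SD, n = 3 each), 11.1-fold lower in knockouts (log2 change -2.80, SE 0.17; limma adjusted p = 8.0e-06; -2.50 after TMM scaling). About 51 to 86 fragments stand behind a knockout value and 603 to 912 behind a control value. Among the 10847 tested genes, 50 had a more negative log2 change. Because 1 FPKM is added before the logarithm, the log2 change understates this ratio.

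Card9, the adaptor that links SYK to BCL10 and MALT1, read 52.0, 58.7 and 53.8 FPKM in knockout libraries, against 82.0, 74.05 and 84.0 FPKM in control libraries. The groups do not overlap. It averaged 54.8 ± 3.48 FPKM in knockouts and 80.0 ± 5.27 FPKM in controls (SD, n = 3 each), with a log2 change of -0.54 (SE 0.07; limma adjusted p = 1.5e-04). After TMM scaling the log2 change was -0.15 and not called (limma adjusted p = 0.083). Syk read 134, 119 and 149 FPKM in knockout libraries and 139, 133 and 141 FPKM in control libraries, which overlap. Its log2 change was -0.05 as deposited (limma adjusted p = 0.62) and 0.34 after TMM scaling (limma adjusted p = 0.0082).

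**Figure D2:**
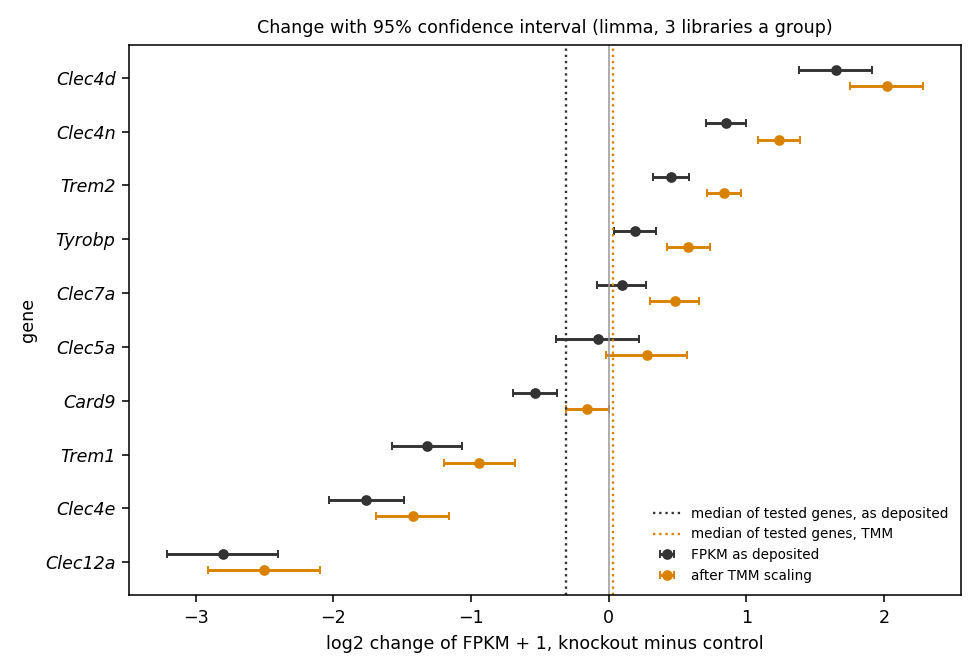
Log2 change of FPKM + 1, knockout minus control, for each gene with its 95% confidence interval, as deposited in black and after TMM scaling in orange, beside the median of all tested genes as dotted lines. Clec4d, Clec4n, Trem2 and Tyrobp lie above 0 and Trem1, Clec4e and Clec12a below it under both scalings, while Clec5a changes side.

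Several of the genes that fell are also expressed by neutrophils and monocytes, so markers of other cells were read beside them. Marker counts are as deposited, where 11.0% of all tested genes were higher and 58.8% lower. After TMM scaling the shares of all tested genes were 31.1% and 25.3%. Of 20 neutrophil markers 9 were tested, with 2 higher and 1 lower, and their summed level was 106 to 128 FPKM in knockout libraries and 91.1 to 107 FPKM in control libraries. The neutrophil gene Ly6g, 1 of these 20 markers, was at most 0.06 FPKM in any library. Nearly all of that sum thus came from other markers of the list, of which 9 were under 1 FPKM in all libraries, Ly6g among them. Of 16 monocyte markers 10 were tested, with 1 higher and 7 lower, and they summed to 99.1 to 111 FPKM in knockout libraries and 425 to 534 FPKM in control libraries. Among these the monocyte gene Ly6c2, too low to be tested, averaged 0.433 FPKM in knockouts and 1.45 FPKM in controls, while Fn1 averaged 7.74 FPKM in knockouts and 223 FPKM in controls, and Nr4a1 averaged 20.7 FPKM in knockouts and 167 FPKM in controls. Fn1 and Nr4a1, singled out after their values were seen, made up most of the control sum. The other 14 monocyte markers summed to 71.9 to 86.1 FPKM in knockout libraries and 80.3 to 89.3 FPKM in control libraries, which overlap. Much of that sum was Treml4, not called, at a mean of 41.3 FPKM in knockouts and 35.9 FPKM in controls. The overlap of the sums therefore does not show that the other markers were unchanged. Of the 10 tested monocyte markers, 70% were lower as deposited and 50% after TMM scaling, beside 58.8% and 25.3% of all tested genes. The part of these markers in the falls of Trem1, Clec4e and Clec12a was not tested.

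Interstitial macrophage markers, of which 8 of 18 were tested, had 1 higher and 5 lower and summed to 105 to 170 FPKM in knockout libraries and 335 to 418 FPKM in control libraries, and Cd14 made up most of the control sum with a mean of 343 FPKM. The 16 dendritic cell markers had 6 tested, 1 higher and 2 lower, and summed to 121 to 138 FPKM in knockouts and 131 to 152 FPKM in controls. Markers of lymphocytes, other granulocytes, epithelium and endothelium had 19 of 29 tested, 1 higher and 15 lower. They summed to 71.3 to 194 FPKM in knockouts and 180 to 573 FPKM in controls. Their lower share was 78.9%, and 72.2% of 18 after TMM scaling, above the 58.8% and 25.3% of all tested genes. For interstitial macrophage markers the lower share was 62.5%, near that of all tested genes, and 37.5% after TMM scaling. Of 20 alveolar macrophage markers, all tested, 8 were higher and 9 lower. They summed to 26725 to 33290 FPKM in knockouts and 21111 to 23298 FPKM in controls, a rise that the median marker did not share. Their median log2 change was -0.36, beside -0.31 for all tested genes, and both medians were 0.03 after TMM scaling. Siglecf averaged 226 FPKM in knockouts and 234 FPKM in controls, but 1 marker does not stand for the list. After TMM scaling 10 of the 20 alveolar macrophage markers were higher and 9 lower. General immune markers, which include Tyrobp and Fcer1g, had 3 of 7 higher and 3 lower and summed to 4973 to 5358 FPKM in knockouts and 4508 to 4675 FPKM in controls.

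The order of levels also differed between the groups. In knockouts the means ran from Tyrobp at 1421 FPKM through Clec7a at 741, Clec4n at 573, Trem2 at 81.4, Card9 at 54.8, Clec4d at 41.8, Trem1 at 36.6, Clec5a at 11.3 and Clec4e at 3.58 to Clec12a at 1.51 FPKM. There, Clec4d and Trem1 overlap between libraries, and every other pair of neighbours in that order is apart. In controls the first 3 places were the same, and Trem1 at 92.7, Card9 at 80.0 and Trem2 at 59.1 FPKM followed, of which Trem1 and Card9 overlap between libraries. The other control means, 16.7 for Clec12a, 14.6 for Clec4e, 12.6 for Clec4d and 11.9 FPKM for Clec5a, overlap from each neighbour to the next. The 10 genes together made up 0.592 to 0.600% of the FPKM sum in knockout libraries and 0.528 to 0.574% in control libraries, and Tyrobp alone was 45.2 to 50.3% of their sum in knockouts and 47.7 to 50.3% in controls.

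A ratio of 2 genes within a library does not depend on how libraries are scaled. For the log2 ratios 0.1 FPKM was added to each level, so these depend slightly on the scaling, most for low genes. Receptors were therefore also set against the adaptor they use, and against each other, in 10 ratios. With 3 libraries against 3 the exact two-sided permutation test cannot give a p below 0.1. Clec4d stood at 10.1 to 12.96 times the level of Clec4e in knockout libraries and at 0.813 to 0.933 times in control libraries, a difference of 3.71 in mean log2 ratio (exact permutation p = 0.1, adjusted p = 0.11 over the 10 ratios). Clec4n was 149 to 179.5 times the level of Clec4e in knockouts and 19.6 to 24.8 times in controls, a difference of 2.84. Trem1 was 0.389 to 0.530 times the level of Trem2 in knockouts and 1.45 to 1.69 times in controls, a difference of -1.80.

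Relative to the adaptors, Trem1 was 1.53 lower in knockouts on the log2 scale against Tyrobp, and Trem2 was 0.27 higher. Against Fcer1g, Clec4d was 1.51 and Clec4n 0.64 higher in knockouts on the log2 scale, and Clec4e 2.20 lower. The log2 ratio of Clec7a to Card9 was 3.75 ± 0.15 in knockouts and 3.12 ± 0.07 in controls (SD, n = 3 each). In these ratios no library of one group overlapped the other, so each reached the smallest p the design allows. Clec5a to Tyrobp overlapped, with a difference of -0.28 (exact permutation p = 0.3, adjusted p = 0.3). No ratio passed 0.05, which this design cannot reach.

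**Figure D3:**
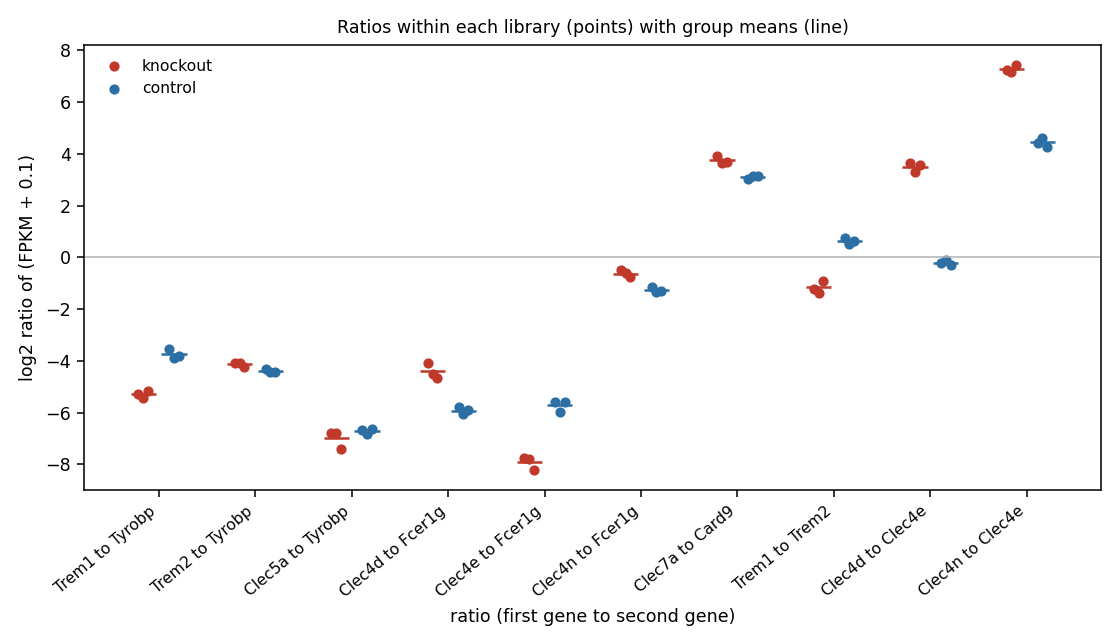
Log2 ratio of FPKM + 0.1 between the named genes in each library, with knockout libraries in red, control libraries in blue and the group mean as a line. The ratio of Clec4d to Clec4e separates the groups most, with means of 3.51 in knockouts and -0.20 in controls, and Clec5a to Tyrobp is the pair whose libraries overlap.

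Most of these genes lie in clusters of relatives. In the RefSeq annotation of GRCm38, Clec4n (chr6:123229843-123247024), Clec4d (chr6:123262107-123275268) and Clec4e (chr6:123281789-123289871) follow each other within 60.0 kb. Clec4d and Clec4e are 6.5 kb apart and are read from opposite strands, plus and minus. Clec12a (chr6:129349783-129365303) and Clec7a (chr6:129461591-129472785) share another lectin cluster 6059.9 kb further along the same chromosome. Trem1 (chr17:48232713-48246927) and Trem2 (chr17:48346401-48352276) are 99.5 kb apart. Clec5a (chr6:40574898-40585805), Card9 (chr2:26352187-26360945) and Tyrobp (chr7:30413782-30417582) stand alone. The bases before the annotated starts are shown for pairs of one cluster that moved in opposite directions, Clec4d with Clec4e and Trem1 with Trem2. Clec4d and Clec4e are read towards each other, so their starts do not face the 6.5 kb between them. Other tested genes lie between Trem1 and Trem2. Sequences are from RefSeq on GRCm38.p6, read 5′ to 3′ on the strand of the gene and ending before the outermost annotated start. Capitals mark matches to the motifs searched.
Clec4d, chr6:123261857-123262106, + strand: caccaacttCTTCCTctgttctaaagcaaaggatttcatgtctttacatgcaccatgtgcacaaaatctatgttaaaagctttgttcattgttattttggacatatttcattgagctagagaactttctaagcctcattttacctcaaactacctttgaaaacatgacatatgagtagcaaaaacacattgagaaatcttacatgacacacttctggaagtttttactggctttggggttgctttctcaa
Clec4e, chr6:123289872-123290121, - strand: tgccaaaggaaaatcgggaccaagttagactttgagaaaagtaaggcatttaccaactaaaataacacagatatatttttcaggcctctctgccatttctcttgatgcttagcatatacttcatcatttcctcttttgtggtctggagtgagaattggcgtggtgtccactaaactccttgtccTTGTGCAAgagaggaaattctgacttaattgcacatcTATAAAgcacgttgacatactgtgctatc
Trem1, chr17:48232489-48232712, + strand: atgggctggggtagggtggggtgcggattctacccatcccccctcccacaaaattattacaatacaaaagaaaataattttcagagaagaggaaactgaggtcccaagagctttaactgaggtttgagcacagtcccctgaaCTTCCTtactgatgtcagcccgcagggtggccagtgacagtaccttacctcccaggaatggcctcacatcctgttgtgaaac
Trem2, chr17:48346151-48346400, + strand: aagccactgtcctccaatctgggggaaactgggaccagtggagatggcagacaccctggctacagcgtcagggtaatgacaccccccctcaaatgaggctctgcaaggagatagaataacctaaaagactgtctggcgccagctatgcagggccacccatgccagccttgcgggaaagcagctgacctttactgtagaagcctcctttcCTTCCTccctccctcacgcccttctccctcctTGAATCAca

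Each motif was searched on both strands in the 250 bases before the start that the RefSeq promoter table gives, which for Trem1 lies 26 bases after the outermost start. AGGAAG, the core bound by ETS factors such as PU.1, was found in Clec4d, Trem1 and Trem2, at 241, 108 and 41 bases before the start, and not in Clec4e. It was in 29.2% of 27025 RefSeq promoters. TTGCNNAA, of C/EBP factors, was found in Clec4e (9.55% of promoters), 66 bases before the start. TGANTCA, of AP-1, was found in Trem2 (6.87%), 9 bases before the start. TATAAA was found in Clec4e (3504 of the promoters), 29 bases before the start. GAGGAAGT, which contains AGGAAG, was in 2.44% of promoters, CACGTG in 6.05%, TGACGTCA in 1.62% and the kappa B motif in 0.337%, and none of them was in these 4 windows. These matches describe the letters of the windows only. For Clec4n and Tyrobp the promoter sequence was not used here.

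Genes beside them were measured too. Of 27 tested genes within 100 kb of the receptors and adaptors, or between those of one cluster, 7 were higher in knockouts, 13 lower and 7 not called as deposited, where 69.8% of all tested genes were called, 11.0% higher and 58.8% lower. After TMM scaling 12 were higher, 5 lower and 10 not called, where 31.1% of all tested genes were higher and 25.3% lower. In the Trem cluster, B430306N03Rik, which RefSeq also lists as Treml6, lies between Trem1 and Trem2. It averaged 13.6 ± 1.77 FPKM in knockouts and 0.527 ± 0.0924 FPKM in controls (log2 change 3.25, 3.50 after TMM scaling). Its neighbour Treml2 averaged 3.57 ± 0.704 FPKM in knockouts and 0.710 ± 0.203 FPKM in controls, log2 change 1.41. Trem3, beside Trem1, was lower as deposited (log2 change -0.29) with 0.03 after TMM scaling, and Treml4 was not called under either scaling (log2 change 0.20, 0.58 with TMM). In the Trem cluster, then, Trem1 fell while Treml2, B430306N03Rik and Trem2 rose.

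In the cluster of Clec12a and Clec7a, the early activation lectin Cd69 averaged 0.470 ± 0.187 FPKM in knockouts and 8.26 ± 1.62 FPKM in controls, a log2 change of -2.65 close to that of Clec12a. Between Clec12a and Clec7a, Clec1b and Clec9a were higher in knockouts (log2 changes 0.78 and 1.09) and Clec1a was lower (-1.005). Past Clec7a, the oxidised lipoprotein receptor Olr1 averaged 264 ± 8.45 FPKM in knockouts and 135 ± 29.9 FPKM in controls, log2 change 0.99. Clec4a2, an inhibitory lectin 107.2 kb before Clec4n by their starts, was lower in knockouts as deposited (log2 change -0.67) and not called after TMM scaling (-0.29). Hcst, which lies 3.9 kb from the start of Tyrobp, was not called as deposited, and the NF-kB inhibitor gene Nfkbid near it was lower as deposited (log2 change -0.60) and not called after TMM scaling (-0.23). Around Card9, at -0.54, tested genes differed among themselves. Snapc4, Entr1 and Inpp5e were lower (log2 changes -0.70, -0.71 and -0.70, and -0.36, -0.33 and -0.37 after TMM scaling). Dnlz, the nearest gene, and Pmpca, between Entr1 and Inpp5e, were not called as deposited (-0.10 and 0.0008) and were higher after TMM scaling (0.25 and 0.37). No gene of the table overlaps any of the 10 genes. Unlisted RefSeq genes overlap Clec7a, Card9 and Trem1, and strand handling is not given in the sources used here, so their reads cannot be told apart from those of an overlapping gene.

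Downstream of the receptors, genes of ITAM, SYK and CARD9 signalling other than the 10 moved in both directions. Of 27 tested, 5 were higher, 14 lower and 8 not called as deposited, against 11 higher, 8 lower and 8 not called after TMM scaling. The shares as deposited, 18.5% higher and 51.9% lower, are near those of all tested genes, 11.0% and 58.8%. After TMM scaling they were 40.7% and 29.6%, beside 31.1% and 25.3%. The median log2 change of the list was -0.30 as deposited, beside -0.31 for all tested genes. The SRC family kinase gene Lyn rose (log2 change 0.62, 1.004 after TMM scaling), as did the SYK-binding adaptor gene Sh3bp2 (0.71, 1.09 with TMM) and Lcp2, which encodes SLP-76 (0.65, 1.04 with TMM). The CARD9 partner Malt1 averaged 8.73 FPKM in knockouts and 20.1 FPKM in controls and fell (log2 change -1.08, -0.72 after TMM scaling). The exchange factor gene Vav2 and the transcription factor gene Nfatc1 fell too (log2 changes -0.99 and -0.93, and -0.61 and -0.56 with TMM). Bcl10, chosen after its values were seen as the third gene of the CARD9 complex, averaged 14.2 FPKM in knockouts and 25.2 FPKM in controls and fell (log2 change -0.78, -0.41 with TMM).

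Among negative regulators of this signalling, 3 of 17 tested were higher, 9 lower and 5 not called, against 9 higher, 4 lower and 4 not called once TMM scaling was applied. The shares as deposited, 17.6% higher and 52.9% lower, are near those of all tested genes, 11.0% and 58.8%. After TMM scaling 52.9% of the list were higher and 23.5% lower, beside 31.1% and 25.3% of all tested genes. The receptor phosphatase gene Ptprj rose (log2 change 0.95), as did the ubiquitin ligase genes Rnf128 and Itch (0.38 and 0.26, and 0.69 and 0.63 with TMM), the call of Itch being lost without knockout replicate 1 (limma adjusted p = 0.054). The adaptor gene Dok3 fell (log2 change -0.87, -0.48 with TMM), and so did the phosphatase gene Ptprc, which encodes CD45, and the deubiquitinase gene Cyld (-0.74 and -0.66, and -0.35 and -0.32 with TMM). The median of the list was -0.17.

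Of other C-type lectin receptors, 20 of the 40 in the table were tested, of which 6 were higher, 11 lower and 3 not called, against 6 higher, 8 lower and 6 not called after TMM scaling. Cd93 averaged 162 FPKM in knockouts and 21.6 FPKM in controls (log2 change 2.86). Clec9a and Olr1 rose as given above, and Cd69, the scavenger receptor gene Colec12 and Clec4b1 fell (log2 changes -2.65, -1.66 and -1.60). Their median was -0.68. Of TREM-like, CD300 and paired receptors, 10 of 25 tested were higher, 9 lower and 6 not called, against 14 higher, 7 lower and 4 not called after TMM scaling, with a median of -0.03. After Treml6 the largest rises were those of Cd300a and Cd300lb (log2 changes 1.86 and 1.84), and the largest falls those of Cd300lg, Lilra6 and Sirpb1b (-2.04, -1.39 and -1.20). As deposited, 30% of the other lectins were higher and 55% lower, where all tested genes had 11.0% and 58.8%. After TMM scaling these lectins had 30% and 40%, beside 31.1% and 25.3%. The TREM-like list had 40% higher and 36% lower as deposited, and 56% and 28% after TMM scaling. All tested genes moved both ways too, so movement in both directions is not particular to these lists.

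The list of TREM2 ligands, sheddases and genes of lipid-associated macrophages had 17 of 30 tested members higher, 8 lower and 5 not called, against 21 higher, 2 lower and 7 not called after TMM scaling. As deposited 56.7% of the list were higher and 26.7% lower, where all tested genes had 11.0% and 58.8%. After TMM scaling the shares were 70% and 6.67%, beside 31.1% and 25.3%. The median log2 change of the list was 0.43, beside -0.31 for all tested genes. Without knockout replicate 2, 5 were lower. Gpnmb, the growth factor gene Csf1 and the protease gene Ctsb rose (log2 changes 2.65, 2.39 and 1.52). Apoe, a known ligand of TREM2, averaged 8.69 FPKM in knockouts and 16.5 FPKM in controls and fell (log2 change -0.88, -0.52 with TMM), as did the ligand gene Clu (-0.72, not called with TMM scaling or without knockout replicate 2) and the receptor kinase gene Axl (-0.57, -0.18 with TMM). Of cytokine and early response genes known as targets of SYK and CARD9, 4 of 28 tested were higher, 18 lower and 6 not called, against 5 higher, 15 lower and 7 not called of 27 after TMM scaling, with a median of -1.01. Cxcl2, Egr1 and Tnfaip3 fell (log2 changes -4.61, -3.99 and -3.08), and Ccl2, Il1a and Ccl17 rose (2.07, 0.95 and 0.90), the call of Il1a being lost without control replicate 3 (limma adjusted p = 0.051). The share of early response genes that were lower, 64.3%, is near the 58.8% of all tested genes as deposited. After TMM scaling it was 55.6%, beside 25.3% of all tested genes. The share that was higher was 14.3% as deposited and 18.5% after TMM scaling, beside 11.0% and 31.1% of all tested genes.

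**Figure D4:**
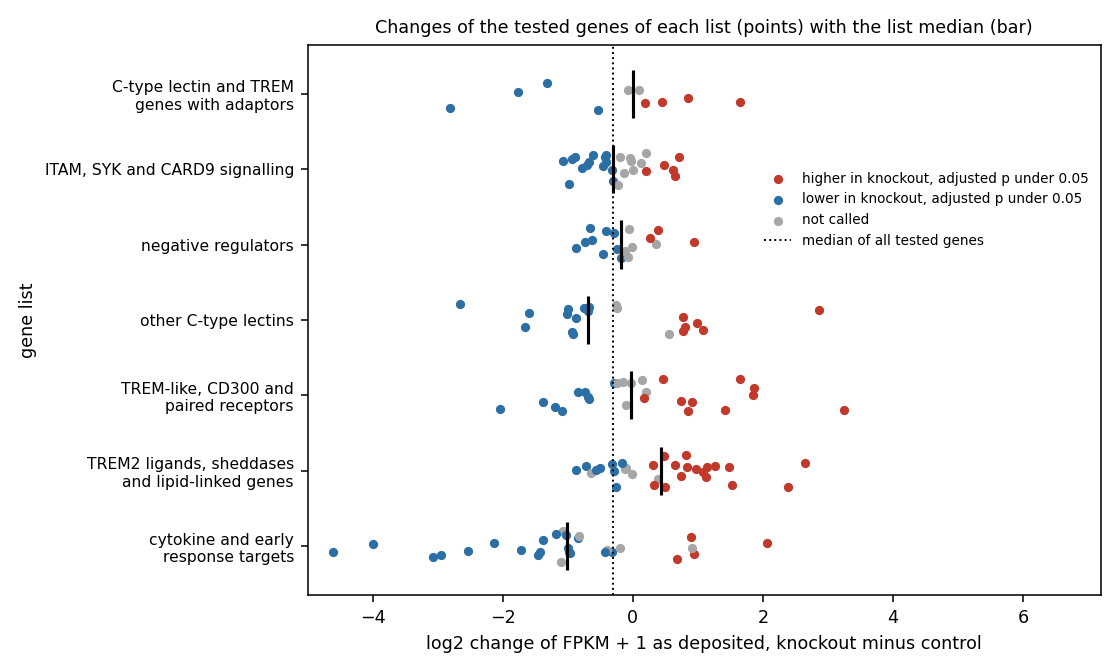
Log2 change as deposited, knockout minus control, of the tested genes of each list, with genes higher at an adjusted p under 0.05 in red, lower in blue and not called in grey, the list median as a bar and the median of all tested genes as a dotted line. The median is 0.43 for the genes linked to TREM2 and -1.01 for the cytokine and early response targets.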

How the data were processed

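Sorted alveolar macrophages gave total RNA (Trizol), from which BGI's usual protocol made the libraries, per the labels' protocols. The tools were Bowtie2 and RSEM and the build was mm10, per the submitters' processing notes, with no versions; for strand handling and filters nothing is stated there. FPKM per gene, in a column for each library, is what the authors deposited, per the file headers. Of 18392 genes 18342 matched RefSeq on GRCm38.p6 by gene ID, and 24 symbols turned into dates were restored through it.

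A pseudocount of 1 FPKM was added before log2, and limma 3.58.1 (R 4.3.3; trended, robust empirical Bayes; two-sided) compared 3 knockout with 3 control libraries over the 10847 genes whose mean reached 1 FPKM. Calls need an adjusted p (Benjamini-Hochberg) under 0.05. The script was tested on simulated data in which few genes changed, equally often up and down. That setting is unlike these data, where most tested genes were called and most of those were lower as deposited. TMM factors were computed from the FPKM matrix, unweighted, trimming 30% of log ratios and 5% of mean levels at each end. They divided knockout libraries by 0.868 to 0.882 and control libraries by 1.14 to 1.15. FPKM are relative to the library's total, and TMM assumes that most genes do not change. The depth estimate took the level that 1 fragment gives in 182 to 226 genes a library with 1 transcript, and used whole transcript lengths, which gave the narrowest peak. Of the 50-base stretches of these genes' transcripts, at most 0.686% occurred in another gene.

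The genes, lists and tests were chosen with earlier results of these data known. The named genes are the 10, up to 3 of the largest called rises and falls without overlap in each list, Fcer1g, Syk and Hdac3. Tested neighbours within 100 kb or between members were also included, though the text does not give all of them. The last part was narrowed to members under 1 Mb apart, since 351 tested genes lie between the outermost members on chromosome 6. Bcl10 and the markers Ly6g, Ly6c2, Fn1, Nr4a1, Cd14 and Siglecf were named outside these rules. Alternatives were TMM and median-of-ratios scaling, a pseudocount of 0.1, no filter or a minimum of 5 FPKM, plain variances, a replicate block, and leaving out each library.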

Additional observations from a re-analysis of the deposited data

How the results depend on the processing

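Clec4d, Clec4e, Clec4n, Clec12a, Trem1 and Trem2 kept their direction and call under all 13 alternatives. Clec5a changed direction, to 0.28 after TMM scaling and 0.27 after median-of-ratios scaling, uncalled in both, and ran from -0.18 to 0.07337 with 1 library left out. Syk turned to 0.34 and 0.33 under these scalings, called in both, and ran from -0.126 to 0.03555 with 1 library left out. Leaving out 1 library, the count of the 10 genes called was 7 to 8, Tyrobp being the call lost.

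After TMM and median-of-ratios scaling, 3360 and 3313 genes were higher and 2733 and 2762 lower, against 1194 and 6376 as deposited. Both scalings gave 11 higher and 8 lower genes in ITAM, SYK and CARD9 signalling, 9 higher and 4 lower among negative regulators, and 2 lower among genes linked to TREM2. As deposited, 8 genes linked to TREM2 were lower, and 5 to 9 with 1 library left out. Without a filter 18 other C-type lectins were lower, and 7 with a minimum of 5 FPKM, against 11, because the number tested changed.

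Libraries share numbers 1 to 3 in the labels, but same-numbered libraries did not deviate together (correlations of -0.11, -0.06 and -0.09 across genes). With the number as a replicate block the 10 genes had 3 higher and 4 lower, Tyrobp not being called (limma adjusted p = 0.062) and Fcer1g becoming a call (limma adjusted p = 0.038), and 7373 genes were called in all, against 7570. Of the receptors and adaptors with 1 listed transcript, for which fragments were estimated, Clec12a and Clec4e have the fewest in knockouts.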
